A study of Mus musculus with 11 samples.

Results

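Rab genes encode small GTPases that mark the membranes of a cell. Each Rab protein cycles between a GTP-bound form on a membrane, where it recruits effectors such as motors and tethers, and a GDP-bound form that is taken back into the cytosol. Guanine nucleotide exchange factors (GEFs) switch Rab proteins on and GTPase-activating proteins (GAPs) switch them off. In macrophages, including microglia, the macrophages of the brain, Rab proteins are known for their part in phagosome maturation, endosomal sorting, lysosome-related organelles and secretion.

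The genes were taken by a rule on names: protein-coding mouse symbols made of Rab, a number and at most a letter and a further number. The family was chosen with earlier results of these data known. Of 59 such genes in RefSeq, 57 are among the 16894 genes of the deposited table; Rab17 and Rab9b are not analysed here. RNA had been sequenced from 11 libraries of microglia of Cx3cr1-GFP mice, in which a green fluorescent protein marks cells that use the Cx3cr1 promoter. The groups were 3 libraries of primary microglia in culture ("cultured"), 4 of resident microglia and 4 of transplanted microglia ("transplanted", taken 3 months after transplantation), the latter groups isolated by fluorescence-activated cell sorting. The protocol text, which stands with every library, describes 3 cycles of depletion by feeding PLX3397 at 600 mg/kg of chow; this compound blocks Csf1r, a receptor that microglia need to survive. Whether the mice that gave resident cells ate this chow, which cells were transplanted, the age of the mice and whether libraries of a group came from separate mice or cultures are not stated in the labels. P-values therefore measure only the spread between these libraries, which may be technical. The design text asks whether microglia acquire a naive expression programme after transplantation.

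Expected counts summed to between 26705034 and 28219696 in a cultured library, 19055655 and 19965631 in a resident one, and 18692721 and 19761208 in a transplanted one. Levels within a gene are given in CPM, counts scaled to a common library total with edgeR's TMM factors, and levels between genes in TPM, the authors' transcript measure, which also divides by gene length. All 10 homeostatic microglia markers were at 1 CPM or more in the resident and the transplanted group, with summed levels of 53800 to 60400 CPM and 45800 to 56500 CPM. Of the 10, 3 were called lower in transplanted than in resident cells and none higher. In the cultured libraries the same sum was 3480 to 6000 CPM, and all 10 were lower than in resident cells. Markers of border-associated macrophages, the macrophages at the surfaces of the brain, summed to 2860 to 3150 CPM in cultured, 52.2 to 109 CPM in resident and 15.1 to 25.3 CPM in transplanted libraries, and all 6 were lower in transplanted than in resident cells. The cultured sum came almost entirely from F13a1, Mrc1 and Pf4. Of the 6, 3 were higher and 2 lower in cultured than in resident cells. Cd163, for example, was at 0.487 to 1.57 CPM in cultured and 4.13 to 8.46 CPM in resident libraries. Lymphocyte markers summed to 2.86 to 3.44 CPM, 18.2 to 27.3 CPM and 1.06 to 1.78 CPM in the same order, and markers of monocytes and neutrophils to 52.5 to 58.2 CPM, 6.65 to 10.4 CPM and 1.32 to 2.21 CPM. In resident libraries Cd79b (17.6 to 26.3 CPM) was the only lymphocyte marker with a mean of 1 CPM or more. Neuron markers stayed at 1.05 to 7.59 CPM in every library, while astrocyte markers ran from 13.9 to 269 CPM, oligodendrocyte markers from 164 to 205 CPM and endothelial markers from 9.34 to 63.0 CPM. The astrocyte sum was mostly Slc1a3 in resident and transplanted libraries (138 to 265 CPM) and mostly Aldh1l1 in cultured ones (13.2 to 22.8 CPM). The oligodendrocyte sum was mostly Cnp (68.8 to 108 CPM), Mbp (37.9 to 83.5 CPM) and Mag (9.85 to 46.0 CPM). Mog and Mobp stayed at 1.36 CPM or less. The endothelial sum was mostly Pecam1 in resident libraries (36.7 to 54.5 CPM), while Cldn5, Ly6c1 and Slco1a4 stayed at 0.0968 CPM or less in every library. Cd3d was at 0 in all cultured and Cd3e at 0 in all resident libraries. The part of these other cells in the differences below was not tested.

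Rab proteins are anchored in membranes by prenyl lipids on cysteines near their carboxyl end, and the coding sequences of all 57 genes carry such cysteine codons there. In GENCODE M21 (build GRCm38), 14 of the 57 coding sequences end with a pair of cysteine codons, and 20 have them at the last and the third last place. A further 14 have a pair of adjacent cysteine codons within the last 5 codons, and 9 have a single cysteine codon at the fourth last place. The last 10 codons before the stop codon are shown for the 6 genes that differed between transplanted and resident cells, and for relatives described beside them, with cysteine codons in capitals.
Rab32: cccacaacaaagcccaggtcccagTGCTGC
Rab20: cccaaacagactagatccgggTGTTGTgcc
Rab3d: ccacccccacagccgagcagcTGCagcTGT
Rab3a: caggcgccacctcatcaggatTGTgccTGC
Rab34: gccagcaagaaaaaggccacaTGTTGTccc
Rab6b: cccccggccagcgagggcggcTGCtccTGT
Rab6a: caaccagtcaatgaaggcggcTGTtccTGC
Rab31: cagagcttgcaagccagccgtcggTGCTGC
Rab7: gccaaggcctccgcagaaagcTGCagtTGT
Rab7b: tctccaggccagccaaagagcagaTGCTGC
Rab6a and Rab6b share the arrangement of their cysteines, as do Rab3a and Rab3d, whereas Rab7 and Rab7b do not. The coding sequences of Rab6a and Rab6b were identical at 78.4% of the bases of the longer one, with no shared stretch longer than 14 bases, and those of Rab7 and Rab7b at 60.1%. Rab1a and Rab1b were identical at 76.1%, with a shared stretch of 38 bases. How the authors' counting treated reads that match more than 1 of these genes is not given in the sources used here.

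Per gene length, a late-endosomal gene had the highest group mean among the Rab genes in every group. Rab7, which directs late endosomes and phagosomes to lysosomes, had the highest mean of the 57 with 322 ± 85.4 TPM (SD, n = 3) in cultured, 338 ± 8.96 TPM (SD, n = 4) in resident and 316 ± 14.0 TPM (SD, n = 4) in transplanted libraries. In resident cells it was followed by Rab14, which acts between Golgi and endosomes (269 ± 14.3 TPM), by Rab1b and Rab1a, which act in transport from the endoplasmic reticulum to the Golgi (196 ± 9.23 and 182 ± 4.53 TPM), and by the recycling endosome genes Rab11a (174 ± 1.78 TPM) and Rab11b (168 ± 12.8 TPM). The means of Rab11a and Rab11b were closer than the SD of Rab11b.

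Transplanted cells had 5 of the same 6 genes among their highest 6, with Rab32 in place of Rab11b. Rab32, a GTPase of lysosome-related organelles and mitochondria, stood at 102 ± 5.52 TPM and rank 11 in resident cells and at 199 ± 13.8 TPM and rank 3 in transplanted cells. In cultured cells Rab20, a GTPase of phagosomes that is induced in activated macrophages, ranked 2 with 289.7 ± 15.8 TPM, and Rab32 ranked 4 with 211 ± 30.8 TPM. Rab7 did not lead in every cultured library: it ran from 223.5 to 377 TPM, and Rab20 from 276.1 to 307 TPM. All 57 together made up 0.256% ± 0.0237 of TPM in cultured (SD, n = 3), 0.280% ± 0.00506 in resident and 0.285% ± 0.00557 in transplanted libraries (SD, n = 4 each), and 0.402%, 0.342% and 0.335% of expected counts. The cultured group thus had the lowest mean share by TPM and the highest by counts, and by TPM its libraries (0.229% to 0.273%) lay below all resident ones (0.275% to 0.287%).

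**Figure D1:**
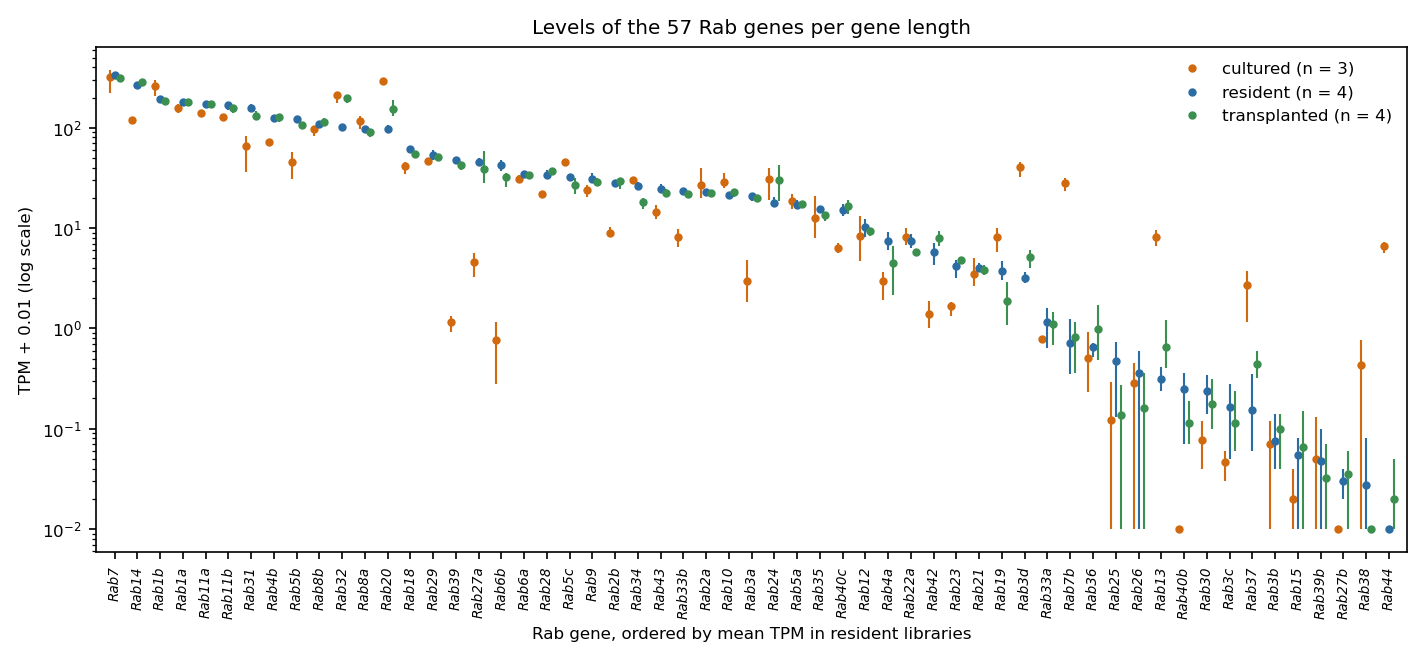
Mean TPM (points) with the range over libraries (lines) of the 57 Rab genes in cultured (n = 3), resident (n = 4) and transplanted (n = 4) microglia, on a log axis after adding 0.01 to each value, ordered by the resident mean. Resident and transplanted points lie close together for most genes, while Rab39, Rab27a and Rab6b fall far below them in cultured cells and Rab3d, Rab7b, Rab13 and Rab44 far above.

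The comparison of transplanted with resident cells addresses the study's question. In it, 3 Rab genes were higher in transplanted cells (Rab32, Rab20 and Rab3d) and 3 were lower (Rab34, Rab6b and Rab31). Both counts are 6.67% of the 45 Rab genes tested. The test was edgeR's quasi-likelihood test, with p-values adjusted by Benjamini and Hochberg's method over the whole table and a threshold of 0.05. Over all 11929 genes tested, 7.17% were called higher and 5.86% lower, so the Rab genes were called about as often as genes at large. Their median log2 difference was -0.09, against 0.02 for all genes, and 15 of the 45 (33.3%) had an unadjusted p under 0.05, against 27.6% of all genes. The 39 genes not called are not thereby shown to be equal.

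The gene with the largest called rise was Rab32. Its level was 80.05, 90.9, 87.7 and 93.2 CPM in resident libraries 1 to 4, 173, 178, 172 and 150.2 CPM in the transplanted ones, and 413, 335 and 394 CPM in the cultured ones. In these scaled counts the 3 groups did not overlap, with the transplanted libraries between the others; by TPM, transplanted libraries (178 to 208) lay above resident ones (93.7 to 106) and within the cultured range (175.5 to 229). The rise over resident cells was 1.92-fold (log2 0.94 ± 0.07 SE, edgeR adjusted p = 3.0e-05), and it held with any 1 library left out (0.88 to 0.99). Rab32 lies on chromosome 10 at 10545039 to 10558207 (GRCm38.p6).

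Rab20 (chromosome 8, 11453390 to 11478640) had 54.4, 57.3, 60.4 and 54.1 CPM in resident and 85.95, 84.3, 71.7 and 106.5 CPM in transplanted libraries. Every transplanted library was above every resident one, and library 4 was the highest. The rise was 1.55-fold (log2 0.63 ± 0.11 SE, edgeR adjusted p = 0.0038), with 371, 350.2 and 329.5 CPM in the cultured libraries. Rab3d, a Rab of secretory granules (chromosome 9, 21907491 to 21918199), had 5.39, 5.19, 4.80 and 6.31 CPM in resident and 9.83, 6.82, 7.78 and 10.1 CPM in transplanted libraries. These groups did not overlap either, but the gap between them was narrow. The rise was 1.60-fold (log2 0.68 ± 0.16 SE, edgeR adjusted p = 0.018). It missed the threshold without resident library 1 (adjusted p = 0.051), 2 (0.062) or 3 (0.065).

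Among the genes that were lower, Rab34, a Rab of the Golgi and of primary cilia that also acts in phagosome maturation (chromosome 11, 78188427 to 78192193), had 17.9, 17.9, 15.9 and 17.6 CPM in resident and 12.97, 12.3, 10.4 and 12 CPM in transplanted libraries. All transplanted libraries were below all resident ones, and the level was 1.45-fold lower (log2 -0.54 ± 0.10 SE, edgeR adjusted p = 0.0045). Rab6b, the paralog of the Golgi gene Rab6a that is best known from neurons (chromosome 9, 103111667 to 103185276), had 73.5, 66.1, 84.8 and 79.5 CPM in resident and 59.2, 51.7, 59.2 and 61.55 CPM in transplanted libraries. The groups did not overlap, and the level was 1.31-fold lower (log2 -0.39 ± 0.09 SE, edgeR adjusted p = 0.015). Rab31, a Rab of early endosomes and the trans-Golgi network (chromosome 17, 65651726 to 65772752), had 237, 263, 237 and 239.5 CPM in resident and 187, 191, 187 and 222 CPM in transplanted libraries. It was 1.23-fold lower (log2 -0.30 ± 0.08 SE, edgeR adjusted p = 0.026), again without overlap. The call of Rab31 was lost without resident library 2 (adjusted p = 0.064) or transplanted library 1 (0.067). With all 3 groups in 1 fit, whose spread also takes in the cultured libraries, the calls of Rab6b (adjusted p = 0.313) and Rab31 (adjusted p = 0.414) were lost while the differences stayed at log2 -0.39 and -0.31. By log2(TPM + 1) Rab6b also missed the threshold (limma adjusted p = 0.057).

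**Figure D2:**
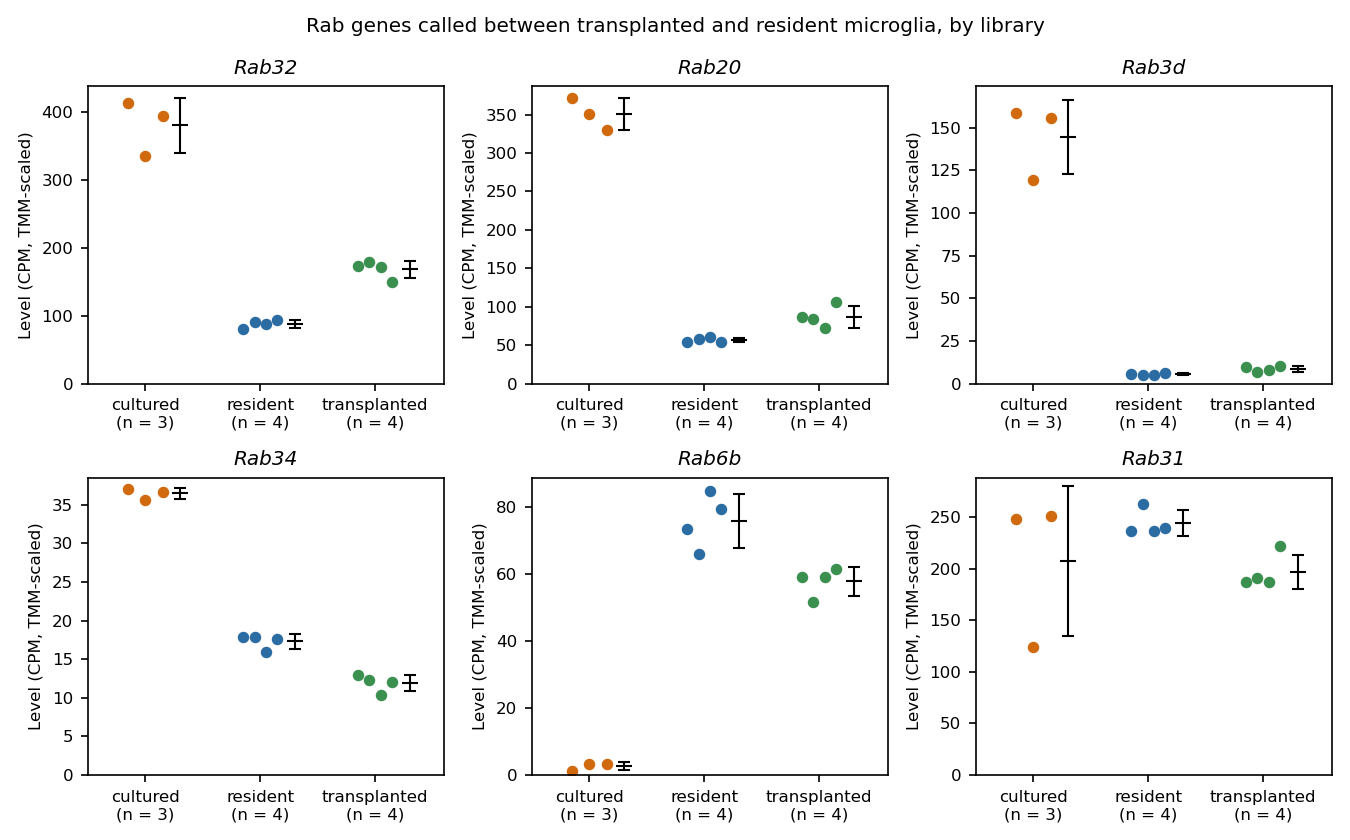
Levels in CPM of the 6 Rab genes called between transplanted and resident microglia, 1 point per library, with mean and SD beside the points, on linear axes from 0. Rab32, Rab20 and Rab3d in transplanted cells lie above the resident libraries and below the cultured ones; Rab34, Rab6b and Rab31 lie below the resident libraries.

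These 6 genes stood in different places between the cultured and the resident level. Rab32, Rab20 and Rab3d were also higher in cultured than in resident cells, so transplanted cells lay on the cultured side of the resident level. Rab34 was higher in cultured cells (36.5 ± 0.723 CPM, SD, n = 3) but lower in transplanted cells (11.9 ± 1.09 CPM, SD, n = 4) than in resident cells (17.3 ± 0.957 CPM, SD, n = 4). By log2(TPM + 1) its difference between cultured and resident cells was only 0.19 and was not called (limma adjusted p = 0.102). Rab6b was far lower in cultured cells, with 1.19, 3.44 and 3.31 CPM. Rab31 had 248, 124 and 251.5 CPM in cultured cells, where library 2 stood apart, and was not called there. Both comparisons use the same resident libraries.

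The 3 genes that rose lie on different chromosomes. The 150 bases before the start of each are shown, on the gene's strand, from the RefSeq promoter table of build GRCm38.p6, with 2 motifs in capitals where they occur on either strand: CACGTG, a full E-box as bound by factors of the MiT/TFE family, and GAGGAA, the core bound by the macrophage factor PU.1.
Rab32 (chr10:10558208-10558357, minus strand): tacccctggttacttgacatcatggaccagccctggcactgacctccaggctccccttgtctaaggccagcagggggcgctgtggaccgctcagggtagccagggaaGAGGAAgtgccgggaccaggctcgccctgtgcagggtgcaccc
Rab20 (chr8:11478641-11478790, minus strand): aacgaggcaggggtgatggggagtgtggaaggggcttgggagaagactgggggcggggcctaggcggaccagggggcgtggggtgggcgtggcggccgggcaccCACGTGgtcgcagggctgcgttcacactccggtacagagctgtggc
Rab3d (chr9:21918184-21918333, minus strand): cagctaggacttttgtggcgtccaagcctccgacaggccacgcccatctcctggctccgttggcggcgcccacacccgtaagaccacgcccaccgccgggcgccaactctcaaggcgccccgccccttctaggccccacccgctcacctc
Of these motifs, the stretch of Rab20 had 1 CACGTG, that of Rab32 had 1 GAGGAA and that of Rab3d had neither. In windows from 250 bases before to 50 bases after a start, GAGGAA was in those of Rab20 and Rab32, and GGGCGG in those of Rab20 and Rab3d. CACGTG occurred in 6 of 58 windows of 46 Rab genes (10.3%) and in 7.2% of all 32851 windows. GAGGAA occurred in 19.0% of Rab windows and 28.3% of all, TGACTCA, the AP-1 motif, in 5.2% of both, and GGGCGG, the GC box, in 69.0% of Rab windows and 35.7% of all. Both strands were searched, and none of the 4 motifs contains another. A match describes the letters of the window and shows no binding.

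Genes below the threshold between transplanted and resident cells included some with libraries that split. Rab24, a Rab linked to autophagy, had 11.9 and 13.2 CPM in transplanted libraries 1 and 2 but 26.4 and 24.6 CPM in libraries 3 and 4, against 11.3, 13.8, 11.7 and 11.75 CPM in resident ones (log2 0.65 ± 0.24 SE, edgeR adjusted p = 0.109). Rab27a, which tethers lysosome-related organelles for secretion, had 38.8, 50.4 and 43.9 CPM in transplanted libraries 1, 2 and 4 and 75.9 CPM in library 3, around resident values of 67.3, 63.4, 61.7 and 61.7 CPM (edgeR adjusted p = 0.327). Transplanted library 3 was thus above all resident libraries and the other 3 below them. Rab19 had 1.18, 1.83, 0.652 and 0.871 CPM against 2.67, 2.06, 1.95 and 2.195 CPM, without overlap, and an edgeR adjusted p of 0.068. It passed the threshold by TPM (log2 -0.75, limma adjusted p = 0.037) and by centred TPM (limma adjusted p = 0.040).

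The comparison of cultured with resident cells asks how cells in culture and cells from the brain differ. The labels name cell sorting for the resident libraries and cell culture for the cultured ones, so culture and sorting cannot be told apart. The largest differences ran in both directions: Rab7b, Rab13, Rab37, Rab3d and Rab44 were far higher in cultured cells, and Rab6b, Rab39, Rab27a and Rab3a far lower. In all, 29 of 48 genes tested (60.4%) were called higher and 8 (16.7%) lower in cultured cells with TMM-scaled counts, but 13 of the 29 had the opposite sign on the TPM scale. Over all 12406 genes tested, 37.9% were called higher and 37.2% lower. The median Rab difference was log2 0.84 against -0.02 for all genes. Of these 48, Rab13, Rab37 and Rab44 reached the minimum count for testing only through the cultured libraries, in which they were high, and Rab30, Rab33a and Rab36 only through the resident ones, so the counts are a description of the genes tested and not of all 57. In these bulk libraries, fewer cells of a type and less RNA per cell cannot be told apart.

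The scaling decides how many Rab genes count as higher. On the TPM scale without further centring, tested with limma on log2(TPM + 1), the median of all genes was -0.95 between cultured and resident cells, and 12 Rab genes were called higher and 20 lower (median -0.23, above that of all genes by 0.72). With TPM centred on the median of each library, 29 were higher and 8 lower. Without TMM scaling, 21 were higher and 15 lower. The 13 genes that were higher by counts and lower by TPM were Rab11a, Rab11b, Rab18, Rab1a, Rab21, Rab28, Rab29, Rab35, Rab4b, Rab6a, Rab7, Rab8b and Rab9, of which 6 were called lower by TPM. Their differences by counts were at most log2 1.01, so statements on them hold relative to the median gene only. Rab22a, Rab34, Rab5a and Rab8a, called higher by counts, had the same sign by TPM but were not called there. Rab44, Rab7b, Rab13, Rab37, Rab3d, Rab6b, Rab39, Rab27a and Rab3a kept their direction in every alternative run.

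**Figure D3:**
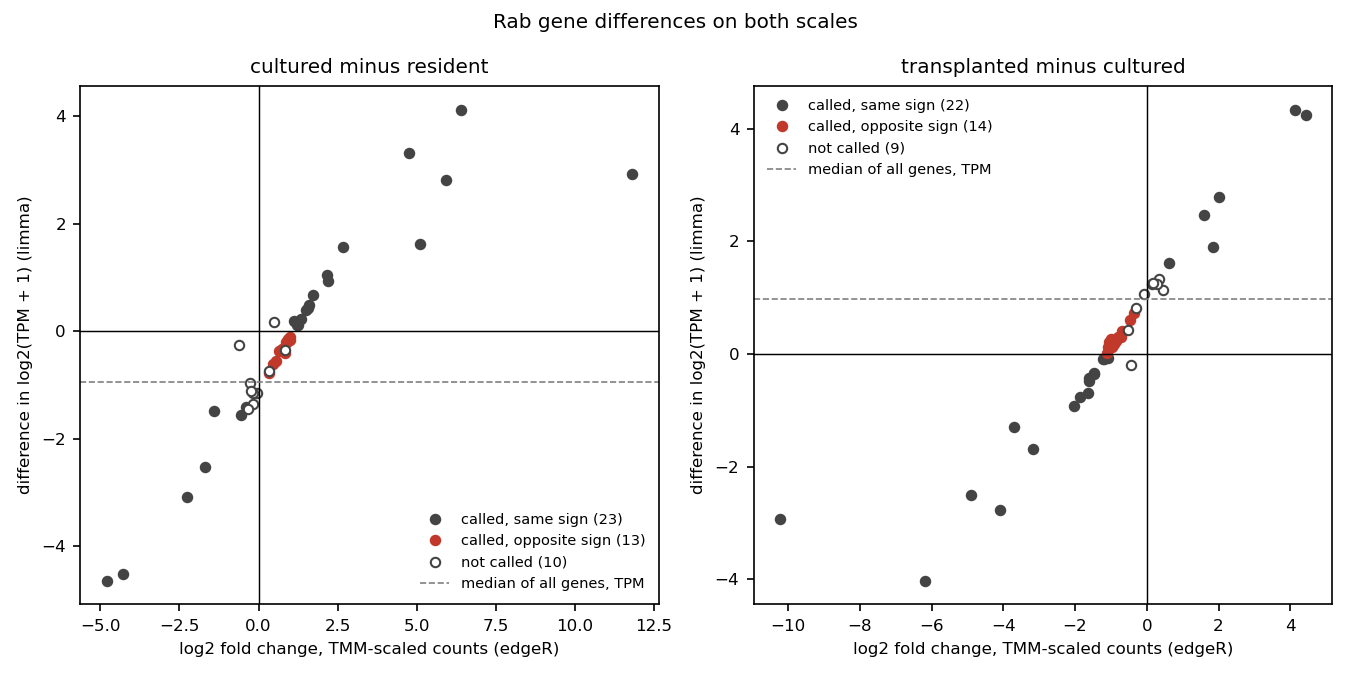
Each point is a Rab gene, with its log2 fold change in TMM-scaled counts (edgeR) on the horizontal axis and its difference in log2(TPM + 1) (limma) on the vertical axis, for cultured minus resident (left) and transplanted minus cultured (right); red points are called genes of opposite sign (13 and 14). The dashed line is the median of all genes by TPM, -0.95 on the left and 0.98 on the right; genes far from the origin have the same sign on both axes.

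Of 5 tested genes of regulated secretion, 3 were higher and 2 lower in cultured cells. Over all genes tested, 37.9% were higher and 37.2% lower. Rab44 and Rab37, among the higher ones, reached the minimum count for testing only through the cultured libraries. Rab44, a large Rab of mast cell and macrophage granules, had 23.4, 17.6 and 21.8 CPM in the cultured libraries and no count in any resident library. With 1302 counts against 0, it was at least 604-fold higher in cultured cells, taking 3 counts over the resident group as the limit of detection. Rab3d had 158, 119.5 and 156 CPM in cultured libraries and was 27.3-fold higher than in resident ones (log2 4.77 ± 0.15 SE, edgeR adjusted p = 1.7e-08). Rab37, another granule Rab, had 7.21, 2.37 and 5.95 CPM in cultured and 0.362, 0.0467, 0.0475 and 0.137 CPM in resident libraries, most of the latter near or below 3 counts.

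Rab27a and Rab3a were lower in culture. Rab27a had 13.8, 9.58 and 15.1 CPM in cultured libraries, all far below the resident ones, and was 4.83-fold lower (log2 -2.27 ± 0.16 SE, edgeR adjusted p = 1.9e-06). Rab3a, the synaptic vesicle Rab, had 2.24, 6.20 and 2.68 CPM against 12.1, 10.8, 13.02 and 12.9 CPM in resident cells (log2 -1.68 ± 0.34 SE, edgeR adjusted p = 0.0015). Neuron markers summed to at most 7.59 CPM in any library, with all 3 tested ones lower in cultured cells; their part in the Rab3a difference was not tested. Rab27b, Rab26, Rab3b and Rab3c were too low to test.

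In the late endosome and lysosome group, all 4 genes were called higher in cultured cells by counts, as were 37.9% of all genes tested. Of the 4, however, Rab7 and Rab9 had the opposite sign on the TPM scale. Rab7b, which acts between late endosomes and the Golgi and is known from monocytic cells, had 124, 101 and 126 CPM in cultured and 0.996, 2.48, 0.665 and 1.51 CPM in resident libraries. The groups were far apart, with an 84.7-fold difference (log2 6.40 ± 0.33 SE, edgeR adjusted p = 2.5e-07). Rab24 was 3.33-fold higher, with 24.2, 55.6 and 38.4 CPM in cultured cells.

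Phagosome genes were split as well. Rab20 was 6.36-fold higher in cultured than in resident cells (log2 2.67 ± 0.10 SE, edgeR adjusted p = 3.7e-08) and Rab34 2.16-fold higher (log2 1.11). By TPM Rab34 was not called (log2 0.19, limma adjusted p = 0.102). Rab39, a Rab linked to phagosome acidification and autophagy in macrophages, had 3.58, 2.57 and 3.12 CPM in cultured and 57.5, 61.7, 64.7 and 64.0 CPM in resident libraries. All cultured libraries were below all resident ones, and the level was 19.5-fold lower (log2 -4.29 ± 0.15 SE, edgeR adjusted p = 2.4e-08). Of the genes of lysosome-related organelles, Rab32 was 4.44-fold higher in cultured cells (log2 2.15 ± 0.11 SE, edgeR adjusted p = 2.6e-07). Rab38, its closest relative, had 36 counts in cultured and 1 in resident libraries, a ratio of 50.1 with a 95% Poisson interval of 8.99 to 1980 that covers counting error only. The cultured counts came from libraries 1 and 2, with none in library 3. Rab29, a relative of Rab32, was higher by counts (log2 1.00) and had the opposite sign by TPM (-0.17).

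Of the 12 genes of the endoplasmic reticulum and Golgi, 5 were higher and 4 lower in cultured cells by counts. These are 41.7% and 33.3%, near the 37.9% and 37.2% of all genes. Rab18, Rab1a and Rab6a among the 5 had the opposite sign by TPM. Rab6b was 27.9-fold lower (log2 -4.80 ± 0.32 SE, edgeR adjusted p = 1.2e-06), without overlap between groups. Rab30, a Golgi Rab, had 0.668, 0.242 and 0.195 CPM in cultured and 0.7245, 1.54, 1.33 and 0.869 CPM in resident libraries, and its call (edgeR adjusted p = 0.025) was lost without cultured library 2 or 3 or resident library 2 or 3 (up to 0.074). Rab2b, a paralog of the Golgi gene Rab2a, was lower, with 25.6, 21.3 and 19.9 CPM against 33.2 to 34.7 CPM (log2 -0.57 ± 0.12 SE, edgeR adjusted p = 0.0019). At the other end, Rab19 had 12.5, 7.45 and 10.2 CPM in cultured cells (log2 2.21) and Rab1b was at log2 1.51.

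Over all genes tested, 37.9% were called higher and 37.2% lower by counts. Of the 6 genes of early endosomes, 4 were higher by counts (from Rab21, log2 0.87, to Rab5c, log2 1.59), and none was lower. Rab21 had the opposite sign by TPM. Rab5b and Rab31 were not called by counts but were called lower by TPM (log2 -1.45 and -1.35). All 6 recycling endosome genes tested had differences below log2 0.9 in size by counts; the 4 called higher by counts (Rab35, Rab11a, Rab11b and Rab4b) all had the opposite sign by TPM, where Rab14 (log2 -1.15) and Rab4a (log2 -1.12) were called lower too. Of 5 exocytic genes 4 were higher by counts, led by Rab13, a Rab of cell junctions and polarised transport, with Rab8b of opposite sign by TPM. Rab13 had 10.9, 12.9 and 8.04 CPM in cultured and 0.136, 0.234, 0.1425 and 0.183 CPM in resident libraries. The resident values are near 3 counts (0.136 to 0.143 CPM in these libraries), so the fitted log2 5.92 ± 0.31 SE (edgeR adjusted p = 2.6e-07) has a weakly measured base.

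Of the 4 tested genes in the mixed group of cilium and other roles, Rab28 alone was called by counts, as higher; by TPM it was called lower, as were Rab23 (log2 -0.96) and Rab40c (log2 -1.16). Rab42, a little studied gene in none of the role lists, was lower in culture with 0.764, 1.16 and 0.8287 CPM against 2.40, 2.62, 2.66 and 2.29 CPM (edgeR adjusted p = 0.0020). Cultured library 2 differed from libraries 1 and 3 in several genes: it had 42.45 CPM of Rab35 against 17.0 and 14.4 CPM, and 91.4 CPM of Rab2a against 44.1 and 49.8 CPM. Without it, the call of Rab35 was lost (log2 0.15, adjusted p = 0.248) and so was that of Rab21, and 27 genes were higher and 7 lower of 49 tested. The calls of Rab35 and Rab21 also fell without resident library 1, 2 or 4, and that of Rab35 without resident library 3; that of Rab4b fell without any 1 resident library (up to 0.078).

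**Figure D4:**
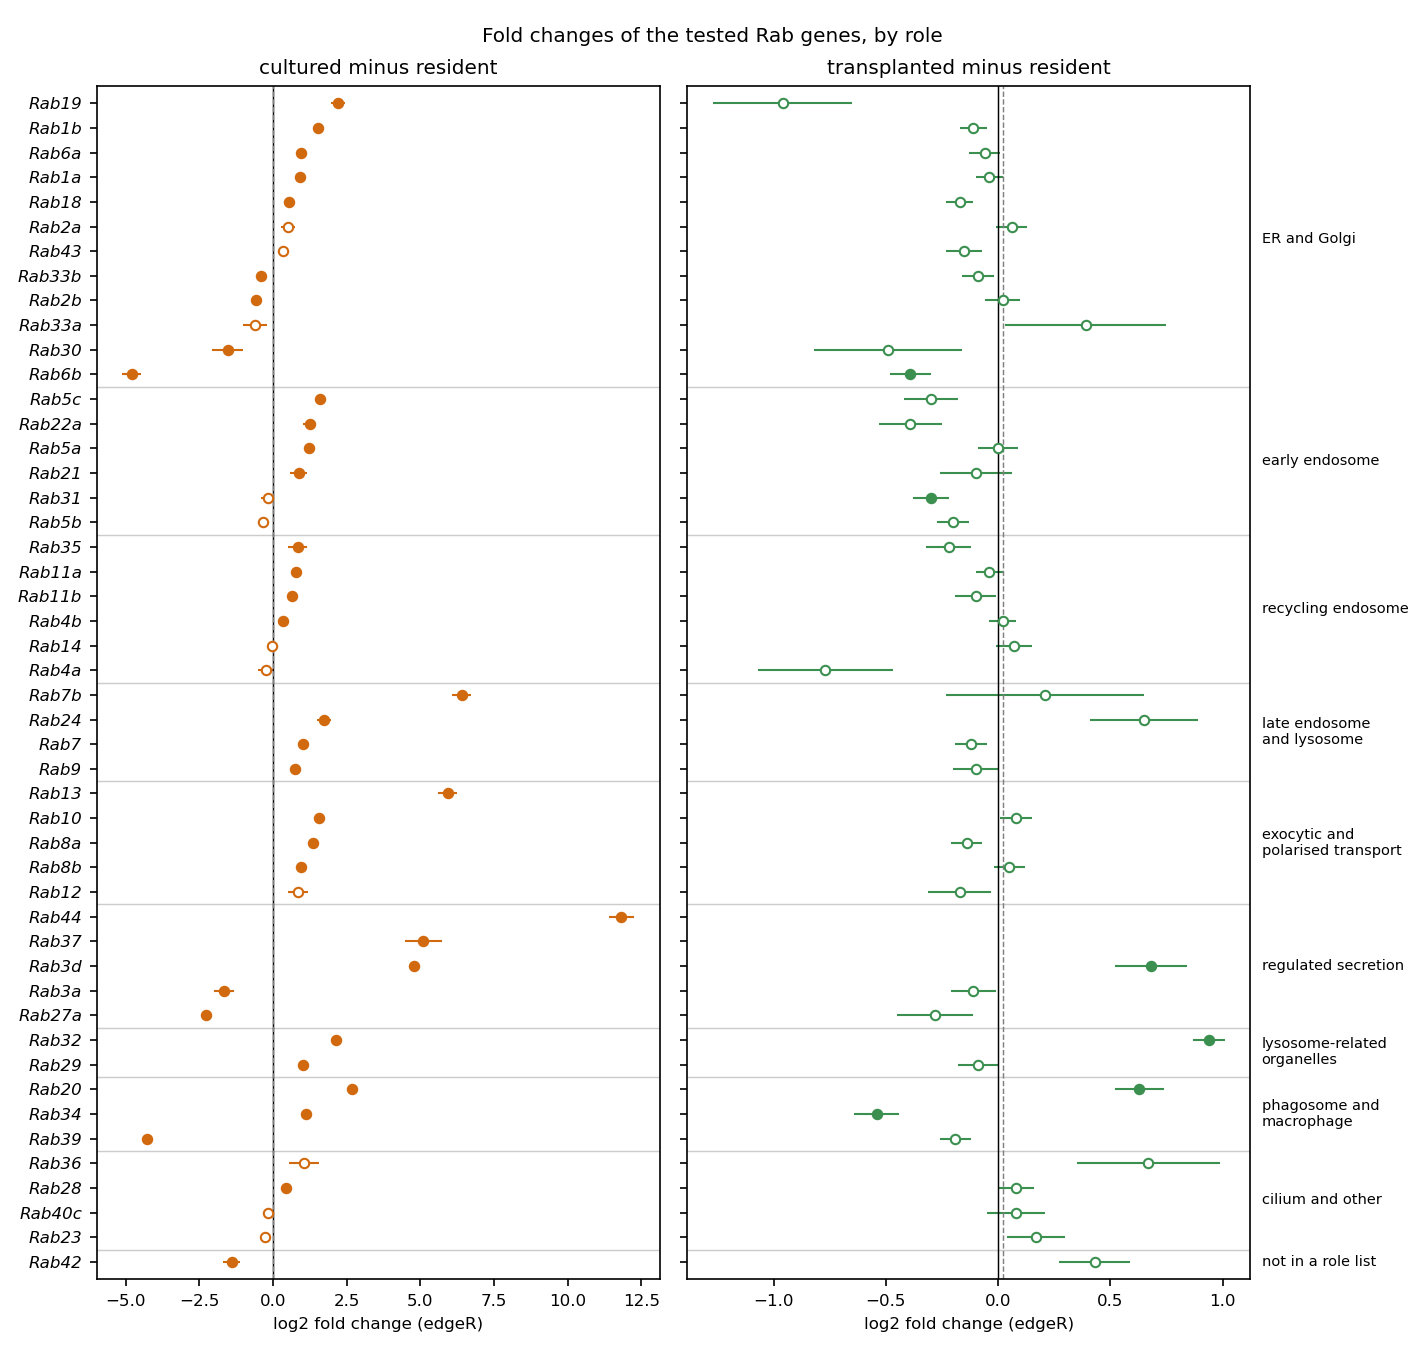
The log2 fold changes (points) and standard errors (lines) of the Rab genes tested, by role, for cultured minus resident (left) and transplanted minus resident (right, a narrower axis); filled points passed an edgeR adjusted p of 0.05 and the dashed line is the median of all genes. On the left most points lie right of 0, 15 of them (13 filled) on the other side when TPM is used; on the right only 6 points are filled.

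Transplanted and cultured cells were furthest apart in Rab44, Rab7b and Rab13, lower in transplanted cells, and Rab6b and Rab39, higher there. These groups also differ in sorting, which cannot be told apart from culture. Rab6b, Rab39, Rab27a, Rab42, Rab3a and Rab2b, 6 of 48 genes tested, were higher in transplanted cells, against 36.9% of all genes, and 30 were lower, against 35.5%, with 14 of the 30 of opposite sign by TPM. Among the 30, the calls of Rab12, Rab21, Rab24, Rab28, Rab35 and Rab43 were lost in at least 1 run with a library left out. The highest edgeR adjusted p in such a run was 0.11, for Rab12. The medians were log2 -0.85 for the Rab genes and 0.05 for all genes. By TPM the median of all genes was 0.98, and 18 Rab genes were higher and 12 lower; without TMM scaling 13 were higher and 20 lower. This comparison shares the transplanted and the cultured libraries with those above, so its values follow in part from theirs. Here Rab13, Rab37 and Rab44 reached the minimum count only through the cultured libraries, and Rab30, Rab33a and Rab36 only through the transplanted ones.

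Rab39 had 57.4, 55.2, 47.7 and 56.5 CPM in transplanted cells, all far above the cultured libraries (log2 4.12 ± 0.18 SE, edgeR adjusted p = 4.4e-08) and all below the lowest resident one, by a narrow margin for library 1. The difference of Rab39 from resident cells was not called (log2 -0.19, edgeR adjusted p = 0.131). Against cultured cells, Rab6b differed by log2 4.43 ± 0.32 SE (edgeR adjusted p = 1.2e-06), Rab27a by 2.01 ± 0.26 (7.1e-05) and Rab3a, with 11.7, 12.1, 10.6 and 10.7 CPM in transplanted cells, by 1.59 ± 0.34 (0.0021). Rab42 had 3.32, 3.32, 2.94 and 3.77 CPM in transplanted cells, above every resident and cultured library (log2 1.84 ± 0.32 SE against cultured, edgeR adjusted p = 4.8e-04). Its difference from resident cells was not called (log2 0.43, edgeR adjusted p = 0.118). Rab2b, with 34.8, 29.5, 35.6 and 37.2 CPM, differed from cultured cells by 0.61.

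On the lower side, Rab44 gave 1 count in the 4 transplanted libraries against 1302 in the cultured ones, a ratio of 1780 with a 95% Poisson interval of 319 to 70300. Rab7b had 0.6825, 1.63, 1.86 and 2.32 CPM in transplanted cells and was 72.6-fold lower than in cultured ones (log2 -6.18 ± 0.30 SE, edgeR adjusted p = 9.8e-08). Rab13 had 0.2275, 0.2402, 0.652 and 0.290 CPM and Rab37 0.4095, 0.336, 0.559 and 0.290 CPM, with log2 differences of -4.90 ± 0.39 and -3.69 ± 0.45. Rab3d was lower by log2 -4.08 ± 0.18 (edgeR adjusted p = 5.5e-08), Rab19 by -3.16 ± 0.36 and Rab20 by -2.02 ± 0.14. Rab32 was lower by log2 -1.19 ± 0.12 by counts (edgeR adjusted p = 1.2e-05) but by only -0.08 by TPM (limma adjusted p = 0.574), and was not called there.

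Within a subfamily, the share of each paralog in the summed TPM of 1 library does not depend on a scaling factor common to that library. A difference between libraries that depends on gene length could still shift it. Rab3d made up 86.7% to 95.8% of Rab3 TPM in cultured libraries, but 11.2% to 14.3% in resident and 15.9% to 24.1% in transplanted ones, and Rab3a nearly all of the rest. Rab6b made up 0.906% to 3.28%, 53.2% to 57.5% and 43.9% to 52.9% of Rab6 TPM in the same order. For both families the 3 groups did not overlap.

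Cultured cells differed from both sorted groups in other families too. Rab2a held 66.2% to 83.0% of Rab2 TPM in cultured libraries but 43.4% to 46.5% in resident and 40.4% to 48.3% in transplanted ones. In the Rab5 family, the early endosome organisers, Rab5b held 32.0% to 47.3% in culture but 70.4% to 72.3% of resident and 69.8% to 72% of transplanted TPM, with Rab5c making up most of the gap. Rab7b held 7.58% to 9.42% of the sum of Rab7 and Rab7b in culture and at most 0.387% elsewhere. Rab8a, which acts in polarised secretion and is a substrate of the kinase Lrrk2, held 53.7% to 55.4%, 46.6% to 48.3% and 43.1% to 45.8%, the rest being Rab8b. The higher Rab8a share in culture was not kept with the trend by gene length removed from the counts. Cultured minus resident, Rab8a and Rab8b then differed by log2 1.25 and 1.36, against 0.23 and -0.17 by TPM. Rab11a and Rab11b kept near equal shares, with Rab11a at 49.6% to 54.3% in every library.

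**Figure D5:**
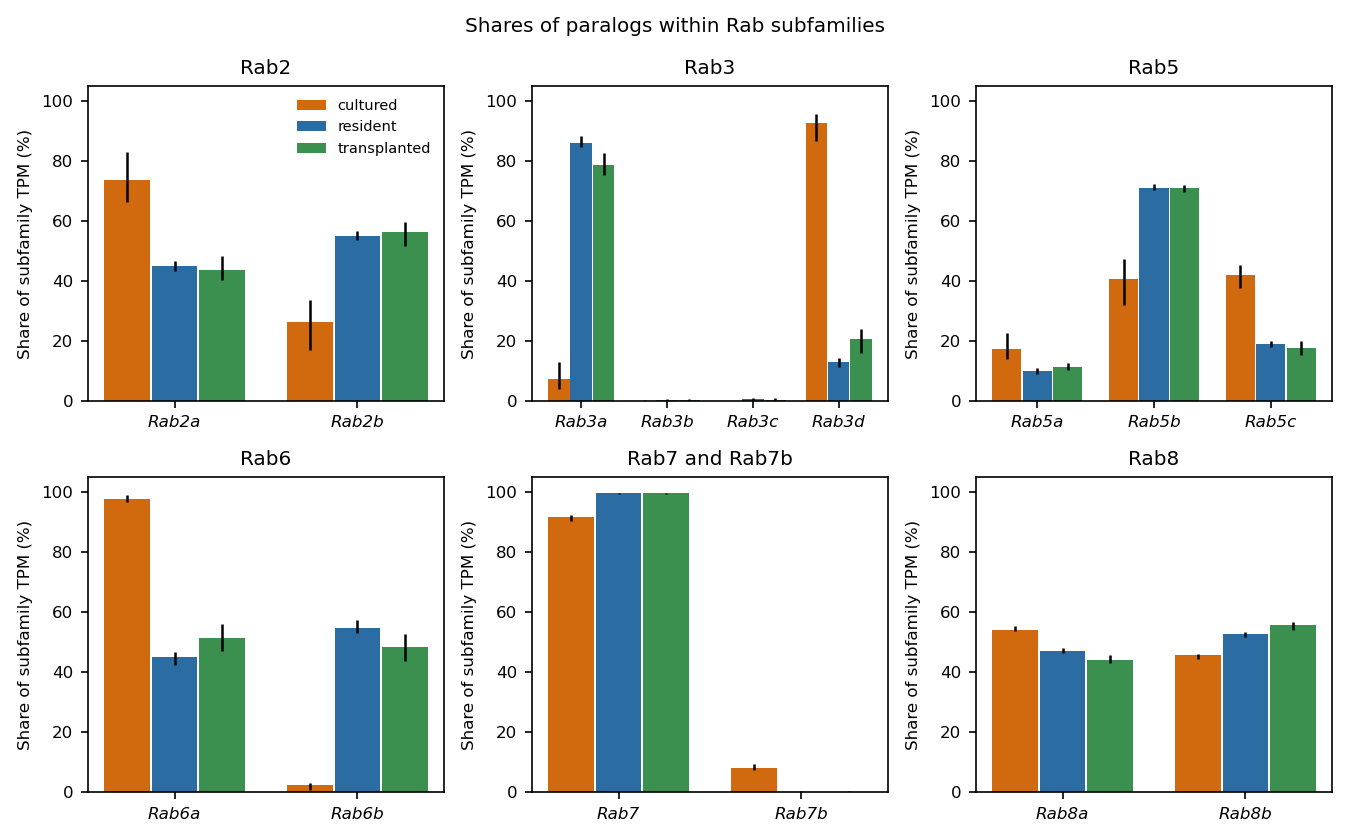
Mean share (bars, from 0) and range over libraries (lines) of each paralog in the summed TPM of its Rab subfamily, in percent, in cultured (n = 3), resident (n = 4) and transplanted (n = 4) microglia. Rab3d and Rab6a hold most of their families in culture, with means of 92.5% and 97.7%, against 13.1% and 45.2% in resident cells.

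Some Rab genes were too low to be tested in any comparison. Rab15, Rab25, Rab26, Rab27b, Rab38, Rab39b, Rab3b, Rab3c and Rab40b did not pass the filter on low counts. Not all of them were at the limit of detection: Rab38 reached 22 counts in a cultured library and Rab3c 19 in a transplanted one. Rab27b had no count in cultured cells and at most 0.144 CPM in any library. Rab40b gave 16 counts over the resident libraries and none in culture, which puts the resident level at least 3.83-fold higher. Rab38 gave none in transplanted cells and was at least 16.4-fold higher in cultured ones, again counting 3 over a group as the limit.

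The machinery that acts on Rab proteins was described by 132 genes in 4 lists (GEFs, GAPs, lipid attachment and recycling, effectors and kinases). Between transplanted and resident cells 14 of 120 tested were higher and 9 lower (median log2 0.02). These are 11.7% and 7.5%, against 7.17% and 5.86% of all genes, but the higher count was 4 to 8 in many other settings. The largest rises were in Rab11fip1, an effector of Rab11, and Myo5a, the myosin Va motor. Rab11fip1 rose from 0.272, 0.234, 0.523 and 0.320 CPM in resident to 2.64, 3.12, 3.91 and 2.855 CPM in transplanted libraries (log2 3.20 ± 0.29 SE, edgeR adjusted p = 7.3e-05); it reached the minimum count for testing only through the transplanted libraries. Myo5a had 8.01, 10.7, 7.32 and 12.1 CPM in resident and 63.5, 45.7, 61.25 and 93.8 CPM in transplanted libraries (log2 2.80 ± 0.23 SE, edgeR adjusted p = 3.7e-05). Neither pair of groups overlapped, and the cultured means were 16.6 and 148 CPM.

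Dennd3, a GEF of Rab12 (log2 1.12), and Tbc1d8, a member of the TBC family of GAPs (log2 0.69), also rose in transplanted cells. Mlph, the melanophilin that links Rab27a to Myo5a on melanosomes, fell: it had 174, 159, 142 and 171 CPM in resident, 61.65, 65.6, 25.2 and 43.3 CPM in transplanted and 1.15, 1.11 and 0.439 CPM in cultured libraries. The 3 groups did not overlap (log2 -1.72 ± 0.24 SE against resident, edgeR adjusted p = 0.0012). Unc13d, the Rab27 effector Munc13-4 of granule secretion, had 47.1, 48.1, 46.3 and 38.9 CPM in resident and 18.25, 14.99, 23.0 and 22.3 CPM in transplanted libraries (log2 -1.20 ± 0.13 SE, edgeR adjusted p = 2.6e-04). Tbc1d10c (log2 -1.29) and Tbc1d4 (log2 -0.98), both GAPs, Mical3, an effector of Rab6 and Rab8 (log2 -0.79), and Wdr41, a partner of the C9orf72 complex (log2 -0.59), were lower too. The calls of Rab11fip4 (log2 0.93) and Denn2b (log2 0.49) were lost without resident library 1, 2 or 3 and in other settings; Rab11fip4 also lost its call without transplanted library 2 or 4, and Denn2b without resident library 4 or transplanted library 3 or 4.

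Between cultured and resident cells, 32 of 122 of these genes were higher and 52 lower, with a median of log2 -0.24 against -0.02 for all genes. These are 26.2% and 42.6%, against 37.9% and 37.2% of all genes. By TPM 11 of 117 were higher and 94 lower (9.4% and 80.3%), where 17.4% and 68.4% of all genes were. Of 40 GEFs tested, 20 were lower and 8 higher, and of 33 GAPs 14 were lower and 7 higher. Of 41 effectors and kinases 15 were lower and 14 higher, and of 8 genes of lipid attachment 3 each. Hps4, which with Hps1 forms the GEF of Rab32 and Rab38, was lower in cultured cells (22.3 ± 7.28 CPM, SD, n = 3) than in resident ones (264 ± 27.7 CPM, SD, n = 4), with log2 -3.53 ± 0.24 SE (edgeR adjusted p = 1.5e-06). Rab32 itself was higher there. Mlph was lower by log2 -7.44 ± 0.27 (edgeR adjusted p = 3.2e-08).

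Dennd6b (log2 -3.20), Rab3ip, a GEF of Rab8 (log2 -3.10), Mical3 (log2 -3.02) and Dennd2c (log2 -3.0) followed. Rilpl2, which binds phosphorylated Rab8 and Rab10, had 249 ± 17.0 CPM (SD, n = 3) in cultured and 7.66 ± 1.47 CPM (SD, n = 4) in resident cells (log2 5.06 ± 0.16 SE, edgeR adjusted p = 1.8e-08). Tbc1d2, a GAP of Rab7 (log2 5.82), Rab11fip1 (log2 5.64), Lrrk2 (log2 5.14) and Myo5a (log2 3.99) were higher as well. Micall2, an effector of Rab8 and Rab13, had 6.38 ± 1.28 CPM in cultured libraries and no count in resident ones, at least 184-fold higher. Micall2, Lrrk2 and Rab11fip1 reached the minimum count for testing only through the cultured libraries, and Mlph only through the resident ones. The highest edgeR adjusted p of the genes named here was 2.2e-05, for Lrrk2. All of these directions were the same by TPM where the gene passed its filter; Lrrk2 did not.

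Between transplanted and cultured cells, 52 of 123 regulators and effectors were higher and 32 lower (median log2 0.26), or 42.3% and 26.0% against 36.9% and 35.5% of all genes. By TPM 92 of 117 were higher and 10 lower (78.6% and 8.55%), where 68.1% and 16.2% of all genes were. The largest rises were Mlph (log2 5.74), Dennd2c (3.50), Hps4 (3.41), Dennd6b (3.23), Denn2b (2.96) and Rab3ip (2.87), and, after Micall2, the largest falls were Tbc1d2 (-5.81), Rilpl2 (-4.84), Lrrk2 (-3.63), Tbc1d4 (-2.54) and Rab11fip1 (-2.42), all as log2 differences past the edgeR threshold (adjusted p up to 0.0015, for Lrrk2). Micall2 gave 396 counts in cultured and 1 in transplanted libraries, a ratio of 541 with a 95% Poisson interval of 97.2 to 21400. Micall2, Lrrk2 and Tbc1d2 reached the minimum count for testing only through the cultured libraries, and Mlph only through the transplanted ones.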

How the data were processed

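The deposited table gives, per the file headers, an expected count, a TPM and an FPKM per gene and library; the 11 FPKM columns were not used. The authors estimated the expected counts and scaled TPM for length and library. HISAT, Bowtie2 and build GRCm38.p6 were used per the submitters' processing notes; no source used here gives versions, the counter or filters. RNA was extracted with TRIzol and 1 ng made into Smart-Seq libraries per the labels' protocols, which give no strand. Symbols came from RefSeq (16845 of 16894 identifiers matched; 49 stayed in the tests unnamed). Libraries were grouped by title.

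Counts were rounded and each pair of groups fitted alone with edgeR 4.0.16 (R 4.3.3): TMM, filterByExpr, quasi-likelihood test, Benjamini-Hochberg adjustment over every gene in the fit, threshold 0.05. The fit was also run on simulated counts in which few genes changed, as many up as down. That run cannot bear on the scaling between cultured and sorted cells, where most genes were called. CPM scale all 11 libraries together; 3 counts, the limit a count of 0 allows, are 0.136 to 0.146 CPM. Without molecular identifiers, these intervals and limits cover counting error alone. Alternatives were DESeq2 1.42.0, no filter, no TMM, all groups in 1 fit, a length trend removed, a replicate block, limma 3.58.1 on TPM (pseudocounts 1 and 0.1; minimum 1 TPM), and each library left out. Members, lists and tests were chosen with earlier results of these data known. Named were the 6 largest called rises and falls per comparison, among Rab genes and among regulators and effectors (some by log2 difference alone). The 6 highest Rab genes by TPM were named too. Rab24, Rab27a, Rab35, Rab2a and Rab38 were added after their values were seen. Values of further Rab genes outside this rule, such as Rab23, Rab40c, Rab4a and Rab5b, are also given.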

Additional observations from a re-analysis of the deposited data

Results flagged for a closer look

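In groups of 4 libraries, a library was singled out where its gap to the nearest other passed Dixon's 95% critical value as a share of the group's range. Of 87 groups of 4 examined, 4 (4.6%) met this, and chance alone marks about 1 in 20. Rab12 was at 5.68 CPM in transplanted library 3 against 6.97 to 7.05 CPM in the others. Rab31 was at 263 CPM in resident library 2 against 237 to 239 CPM, and at 222 CPM in transplanted library 4 against 187 to 191 CPM. Rab34 was at 15.9 CPM in resident library 3 against 17.6 to 17.9 CPM.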

How the results depend on the processing

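The directions and calls of the 6 Rab genes between transplanted and resident cells held in DESeq2, without the filter, without TMM scaling, with the length trend removed and by centred TPM. By TPM + 1 and TPM + 0.1, the call of Rab6b was lost (adjusted p = 0.057 and 0.058). In that comparison, Rab genes called lower numbered 6 in DESeq2 and 1 with all groups in 1 fit, and regulators called higher numbered 7 by either TPM pseudocount and by centred TPM, 8 with the length trend removed and 4 with all groups in 1 fit. With 1 library left out, the Rab counts were 2 to 4 higher and 2 to 5 lower, and the regulator counts 5 to 13 higher and 8 to 11 lower.

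Between cultured and resident cells, TPM with either pseudocount gave 12 Rab genes higher and 20 lower, 11 regulators higher, and 94 (pseudocount 1) or 93 (0.1) lower. Without TMM scaling 15 Rab genes were lower, and 21 regulators were higher and 80 lower. Between transplanted and cultured cells, TPM with either pseudocount gave 18 Rab genes higher and 12 lower, and 92 regulators higher and 10 lower; without TMM scaling 13 Rab genes were higher and 15 regulators lower. The Rab share was 0.402%, 0.342% and 0.335% of counts in cultured, resident and transplanted cells.

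Among the Rab genes called by counts or among the highest 6 by TPM, signs that changed, as log2 differences, were the following for cultured minus resident by TPM + 1: Rab7 -0.11, Rab28 -0.61, Rab9 -0.33, Rab29 -0.17, Rab11a -0.32, Rab18 -0.55, Rab35 -0.40, Rab8b -0.17, Rab21 -0.21, Rab11b -0.38, Rab6a -0.15, Rab4b -0.78 and Rab1a -0.20. By TPM + 0.1 they were Rab7 -0.11, Rab28 -0.63, Rab9 -0.34, Rab29 -0.17, Rab11a -0.32, Rab18 -0.56, Rab35 -0.44, Rab8b -0.17, Rab21 -0.27, Rab11b -0.38, Rab6a -0.16, Rab4b -0.78 and Rab1a -0.20. Without TMM scaling they were Rab28 -0.14, Rab18 -0.04 and Rab4b -0.25, and with the length trend removed Rab4b -0.48 and Rab14 0.19. For transplanted minus cultured by TPM + 1 they were Rab7 0.01, Rab28 0.72, Rab9 0.26, Rab29 0.12, Rab12 0.26, Rab11a 0.30, Rab18 0.41, Rab35 0.22, Rab8b 0.23, Rab21 0.14, Rab11b 0.31, Rab43 0.61, Rab6a 0.12 and Rab1a 0.18, and by TPM + 0.1 Rab7 0.01, Rab28 0.74, Rab9 0.27, Rab29 0.12, Rab12 0.30, Rab11a 0.30, Rab18 0.41, Rab35 0.24, Rab8b 0.24, Rab21 0.19, Rab11b 0.31, Rab43 0.64, Rab6a 0.13 and Rab1a 0.18. Without TMM scaling they were Rab28 0.21 and Rab43 0.10, and with the length trend removed Rab14 -0.16. Rab14 was not called by counts in either comparison. Over all Rab genes tested, called or not, signs changed for 15 of 46 by TPM + 1, 15 of 46 by TPM + 0.1, 5 of 48 without TMM scaling, 4 of 47 with the length trend removed and 2 of 46 by centred TPM (cultured minus resident), and for 17 of 45, 17 of 45, 7 of 48, 5 of 47 and 0 of 45 (transplanted minus cultured). The uncalled genes by TPM + 1 were Rab12 -0.35 and Rab43 -0.74 in the former, and Rab31 1.07, Rab4a 0.43 and Rab4b 0.82 in the latter. By TPM + 1 the median of all genes was -0.95 and 0.98 in these comparisons; the cause was not tested.

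Replicate numbers did not pair the libraries: correlations of same-numbered libraries were -0.07 to 0.053, and not every library correlated best with its own number. With the replicate number as a block, 26 Rab genes were higher and 6 lower (cultured against resident), 3 and 2 (transplanted against resident) and 6 and 27 (transplanted against cultured); Rab31 then had an adjusted p of 0.053. Genes under about 3 counts per library could not be compared at this depth, and the filter on low counts also left out some genes above that.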
